A study of Mus musculus with 15 samples.

Results

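The Raf-MEK-ERK cascade and its feedback genes were followed in ribosome profiling of mouse embryonic stem cells (mESCs), as 8 transcripts out of the 21727 in the count table. They were chosen by name, with earlier results of these data known, and matched by transcript ID to GENCODE M21 on GRCm38. The kinases are *Braf* and *Araf* (Raf), *Map2k1* and *Map2k2* (MEK) and *Mapk3* (ERK). The feedback genes are *Dusp6*, *Spry2* and *Spry4*. All 8 were above the limit on low counts, CPM (counts scaled to a fixed library total) over 2 in at least 14 of the 15 libraries, which 10085 transcripts passed.

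The cells were E14Tg2a.4 mESCs, grown on gelatin with serum and leukemia inhibitory factor. Each of 3 lines was represented by 3 clones. The *Rps27-FLAG* and *Rps27l-FLAG* lines carried a 3xFLAG tag on both endogenous copies of *Rps27* or *Rps27l*, paralogous genes for 1 protein of the small ribosomal subunit, and grew from independently picked single-cell colonies. The third line was unedited WT, matched for passage. All cells were treated with cycloheximide before lysis and RNase digestion. The mRNA fragments that ribosomes protect from the digestion (RPFs) were sequenced in 15 libraries. The 9 total RPF libraries, 1 per clone, hold the fragments of every ribosome, and the 6 IP RPF libraries, 1 per tagged clone, those of ribosomes recovered with an anti-FLAG antibody. The study asked whether ribosomes with either paralog associate with different mRNAs, and used total RPFs to ask whether tagging changed what is translated. An RPF count depends on the amount of an mRNA and on its ribosome occupancy, and these cannot be told apart here. Nor can fewer cells of a type and less RNA per cell be told apart in these cultures.

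In this cascade, growth factor receptors and Ras activate Raf kinases, which phosphorylate MEK, which phosphorylates ERK. Active ERK in turn induces genes that dampen the same cascade: *Dusp6* encodes a cytoplasmic phosphatase that removes the activating phosphates from ERK, and *Spry2* and *Spry4* encode Sprouty proteins, which act upstream between receptor and Raf. In mESCs, autocrine Fgf4 is a well-known source of ERK activity, which favours exit from self-renewal and primitive endoderm fate, and levels of these feedback transcripts are widely used as a readout of it.

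Library totals lay between 3972152 and 8064166 counts, and the 8 transcripts together held from 2537 to 6509 counts of a library. Summed mESC markers reached 4220 to 4760 normalized CPM in the total RPFs, and summed fibroblast markers 5.83 to 13.5. Libraries with the same replicate number were pooled before sequencing, 1 clone of each line to a pool, so the number marks a library pool as well as a clone, and whether it also marks a day of culture is not given in the sources used here. Replicates 1, 2 and 3 below are these numbers.

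*Spry4*, *Map2k1* and *Dusp6* had the highest mean levels per kb of the 8 (plot of levels in the 15 libraries). On the scale of normalized CPM per kb of counted CDS, *Spry4* averaged 208 ± 63.8 (SD, n = 9 total RPF libraries) and lay at the 90.9th percentile of all tested transcripts. *Map2k1*, the gene of Mek1, averaged 119 ± 5.98, and *Dusp6* averaged 103 ± 35.1. *Mapk3*, the gene of Erk1, and *Spry2* had similar levels per kb, 71.2 ± 10.2 and 66.5 ± 11.6. *Map2k2*, the gene of Mek2, averaged 41.6 ± 2.32. The Raf genes were lowest, *Braf* with 23.1 ± 1.61 and *Araf* with 22.3 ± 1.48, close to the median of 25.6 over all tested transcripts. In this order the ranges over the 9 libraries of neighbours did not overlap between *Spry4* and *Map2k1*, between *Spry2* and *Map2k2*, and between *Map2k2* and *Braf*. They overlapped for the other 4 neighbouring pairs, so that *Map2k1*, *Dusp6*, *Mapk3* and *Spry2* had no order beyond their spread from one to the next, nor had *Braf* and *Araf*.

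**Figure D1:**
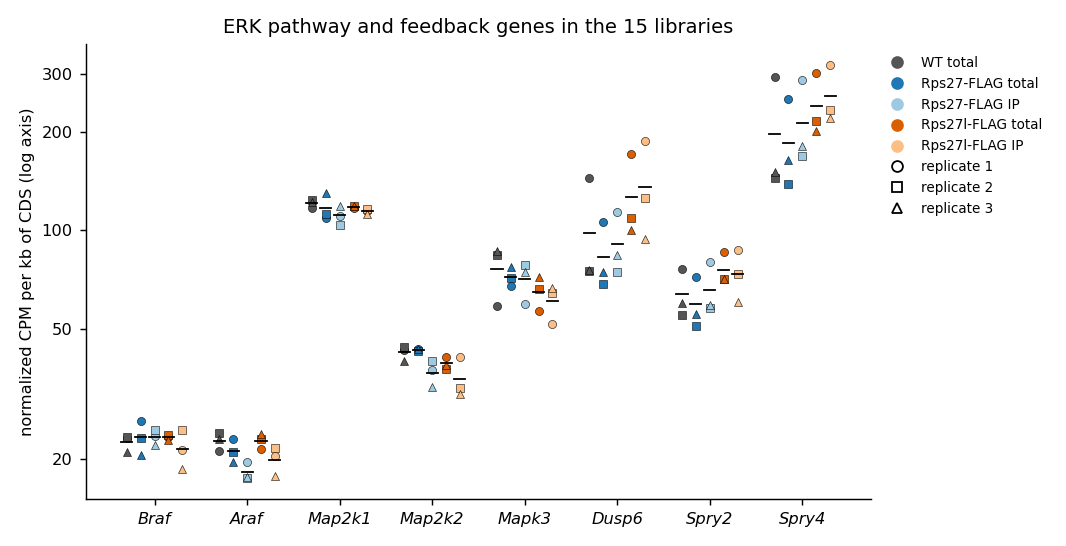
Level of each transcript in the 15 libraries, as normalized CPM per kb of counted CDS on a log axis. Colours give line and fraction, symbols the replicate number and dashes the mean of 3 clones. *Spry4* spans 139 to 303 over the 9 total RPF libraries, while *Map2k1* stays within 109 to 130.

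The kinases first. *Braf* (ENSMUST00000002487, GRCm38 chromosome 6, 39603237 to 39725463, minus strand, 22 exons, CDS of 2412 nt) had between 48.4 and 61.4 normalized CPM in the 9 total RPF libraries. *Araf* (ENSMUST00000001155, chromosome X, 20848543 to 20860519, plus strand, 16 exons, CDS of 1812 nt) had between 34.4 and 42.1. Both encode serine/threonine kinases that phosphorylate MEK, and neither gene separated the lines in total RPFs. *Map2k1* (ENSMUST00000005066, chromosome 9, 64185770 to 64253631, minus strand, 11 exons, CDS of 1179 nt) had between 122 and 145 normalized CPM, and *Map2k2* (ENSMUST00000143517, chromosome 10, 81105915 to 81124697, plus strand, 11 exons, CDS of 1203 nt) had between 43 and 50.5. These are the MEK genes, whose products have ERK as their main known substrate. Their 3 WT, 3 *Rps27-FLAG* and 3 *Rps27l-FLAG* values overlapped for *Map2k1*. For *Map2k2* the 3 *Rps27l-FLAG* values (47.1, 43 and 44.4) lay below the 3 of *Rps27-FLAG* (49.6, 49 and 49.5), and the difference of -0.14 on the log2 scale was not called (adjusted p = 0.803 by edgeR's quasi-likelihood test, Benjamini-Hochberg). How many of all tested transcripts separate in this way is not given here.

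*Mapk3* (ENSMUST00000057669, chromosome 7, 126759601 to 126765819, plus strand, 9 exons, CDS of 1140 nt) stepped most between replicate numbers among the 5 kinases. In the total RPFs its normalized CPM in replicates 1, 2 and 3 was 63.3, 91 and 93.2 in WT, 72.9, 77.3 and 83.4 in *Rps27-FLAG*, and 61.4, 71.5 and 77.6 in *Rps27l-FLAG*. In the IP RPFs it was 64.3, 84.6 and 80.6 in *Rps27-FLAG* and 56.1, 69.5 and 72.1 in *Rps27l-FLAG*. Replicate 1 was the lowest of the 3 in each of the 5 conditions. Reads that align to several transcripts were not counted. Of the 28-nt windows of its counted CDS, 9.4% also occur in other transcripts of GENCODE M21 (*Mapk15*, *Gm15546*, *Gm5675*, *Gm6171* and *Gm7746*), against 4.95% for *Braf* (*Gm18189*), 3.85% of *Map2k1* shared with *Map2k2*, 3.76% of *Map2k2* shared with *Map2k1*, and 0 for the other 4. The counts of these 4 kinases are uncertain by such shares.

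*Dusp6* (ENSMUST00000020118, chromosome 10, 99263231 to 99267488, plus strand, 3 exons, CDS of 1143 nt) varied most between clones. In the total RPFs its normalized CPM in replicates 1, 2 and 3 was 157, 81.3 and 81.9 in WT, 114, 74 and 81.1 in *Rps27-FLAG*, and 185, 118 and 108 in *Rps27l-FLAG*. In the IP RPFs it was 123, 81 and 91.2 in *Rps27-FLAG* and 203, 136 and 102 in *Rps27l-FLAG*. Within every line and fraction replicate 1 was the highest, and within every replicate number the *Rps27l-FLAG* clone was above the WT clone, with the *Rps27-FLAG* clone the lowest in total RPFs. The lines themselves overlapped, since *Rps27-FLAG* replicate 1 (114) was above *Rps27l-FLAG* replicate 3 (108).

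*Spry4* (ENSMUST00000025295, chromosome 18, 38586247 to 38601415, minus strand, 2 exons, CDS of 900 nt) also stepped between replicate numbers. Its normalized CPM in replicates 1, 2 and 3 was 248, 122 and 127 in the total RPFs of WT, 212, 117 and 138 in those of *Rps27-FLAG*, and 255, 182 and 169 in those of *Rps27l-FLAG*. In the IP RPFs it was 243, 142 and 152 in *Rps27-FLAG* and 270, 196 and 185 in *Rps27l-FLAG*. Replicate 1 was again the highest in each condition, and in replicates 2 and 3 the *Rps27l-FLAG* clone was well above the other clones. *Rps27-FLAG* was the lowest of the total RPF libraries in replicates 1 and 2, and WT in replicate 3.

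*Spry2* (ENSMUST00000022709, chromosome 14, 105891947 to 105896819, minus strand, 2 exons, CDS of 945 nt) moved less. In the total RPFs it had 67.7, 48.8 and 53 normalized CPM in WT replicates 1, 2 and 3, 63.7, 45.3 and 49 in *Rps27-FLAG*, and 75.9, 63 and 62.8 in *Rps27l-FLAG*. In the IP RPFs it had 70.7, 51.3 and 52.5 in *Rps27-FLAG*, and 77, 65 and 53.7 in *Rps27l-FLAG*. Within each replicate number the order of the total RPF libraries was *Rps27l-FLAG*, WT, *Rps27-FLAG*, as for *Dusp6*.

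**Figure D2:**
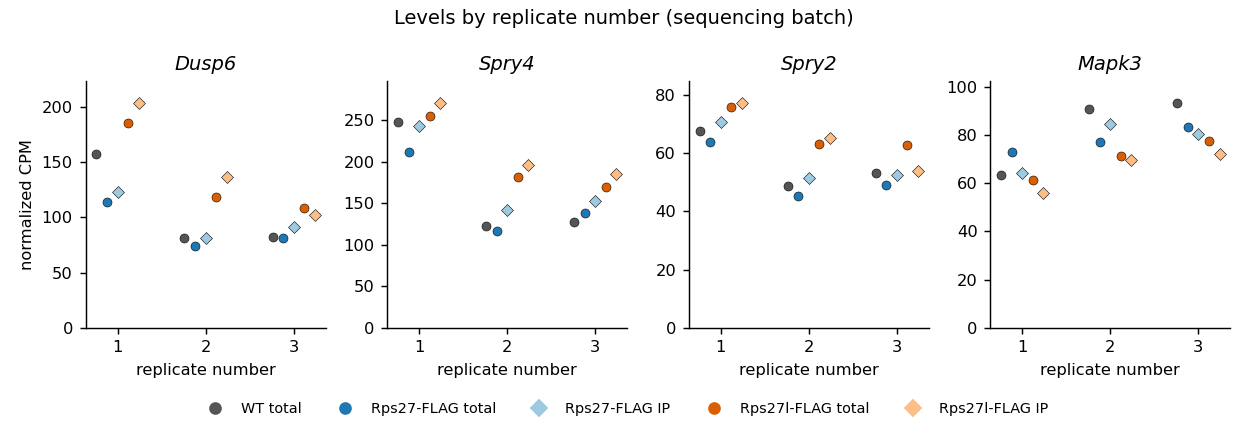
Normalized CPM of *Dusp6*, *Spry4*, *Spry2* and *Mapk3* in each of the 15 libraries, by replicate number, on axes that start at 0. Circles are total RPFs, diamonds IP RPFs and colours the lines; replicate 1 is highest for the 3 feedback genes and lowest for *Mapk3* in each of the 5 conditions.

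Promoter sequences are shown for the feedback genes that RefSeq's GRCm38.p6 table lists. It held 6 of the 8, and *Mapk3* and *Spry4* were not listed. Capitals mark the octamer read by Capicua, a repressor that ERK signalling inactivates, searched as TGAATGAA, TGAATGGA, TCAATGAA and TCAATGGA on both strands of the 300 bases from 250 before to 50 after the start. The octamer was chosen after these sequences had been read, so its matches are no test of these promoters. The first 280 of those bases are printed 5′ to 3′ on the gene's strand.
Dusp6, chr10:99262981-99263260, plus strand: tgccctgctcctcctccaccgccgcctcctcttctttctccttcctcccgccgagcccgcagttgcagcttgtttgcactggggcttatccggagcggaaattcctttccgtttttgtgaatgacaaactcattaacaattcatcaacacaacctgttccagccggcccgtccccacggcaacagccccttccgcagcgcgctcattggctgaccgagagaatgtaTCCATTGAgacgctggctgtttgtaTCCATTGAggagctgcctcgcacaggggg
Spry2, chr14:105896790-105897069, minus strand: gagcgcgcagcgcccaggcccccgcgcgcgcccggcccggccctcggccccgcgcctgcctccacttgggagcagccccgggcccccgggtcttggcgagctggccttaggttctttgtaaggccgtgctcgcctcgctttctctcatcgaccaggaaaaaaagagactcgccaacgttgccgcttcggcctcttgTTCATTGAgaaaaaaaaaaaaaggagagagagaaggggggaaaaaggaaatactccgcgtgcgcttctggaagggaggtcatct
The *Dusp6* promoter held 2 octamers, starting at positions -24 and 2 from the start and reading TCCATTGA, and the *Spry2* promoter held 1 at -54, reading TTCATTGA. The promoters of *Braf*, *Araf*, *Map2k1* and *Map2k2* held 0, and 3.84% of all 32851 promoters of that length held at least 1. The 6-base ETS core CCGGAA was found once each in *Spry2*, *Araf* and *Map2k1* and in 14.9% of all promoters. The AP-1 word TGANTCA was found in none of the 6 and in 7.81% of all. Of the 6, only *Braf* held the CRE word TGACGTCA, 2 times, where 1.79% of all promoters did. The GC box GGGCGG was found in *Braf*, *Map2k1* and *Map2k2* and in 35.7% of all. These are matches of letters, not measured binding sites, and their part in the levels of these genes was not tested.

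The spread of the feedback genes over the 9 clones was well above that of counting. The SD of log2 normalized CPM in total RPFs was 0.461 for *Dusp6*, where counting alone gives 0.054, and the highest clone was 2.49 times the lowest. For *Spry4* it was 0.437, where counting gives 0.0429, with a range of 2.18-fold. These SDs lay at the 98.6th and 98.3rd percentile of the 4624 tested transcripts with a mean count of at least that of *Araf*, the least deep of the 8, whose median SD was 0.108. *Spry2* had an SD of 0.252 over a range of 1.67-fold, at the 92.5th percentile, and *Mapk3* an SD of 0.209 over 1.52-fold, at the 88.2nd. The other kinases were steadier: the SD was 0.1 for *Braf*, 0.0973 for *Araf*, 0.0819 for *Map2k2* and 0.0725 for *Map2k1*, where counting alone gives 0.0738, 0.0869, 0.0786 and 0.047. The 6 IP libraries gave SDs of 0.476 for *Dusp6*, 0.366 for *Spry4*, 0.249 for *Spry2* and 0.217 for *Mapk3*, but they come from the same clones.

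**Figure D3:**
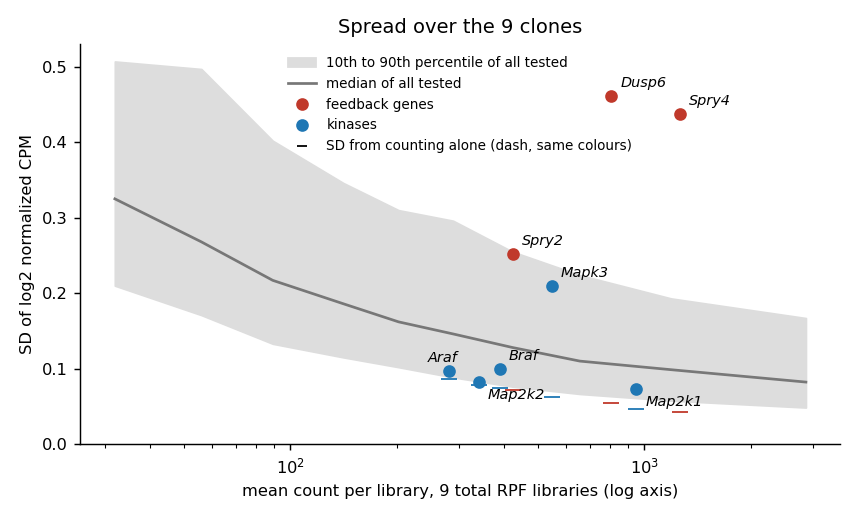
SD of log2 normalized CPM over the 9 total RPF libraries against the mean count, on a log axis. The line and band are the median and the 10th to 90th percentile of tested transcripts of like depth, and short dashes the SD that counting alone gives; *Dusp6* (0.461) and *Spry4* (0.437) lie above the band.

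Whether the clones of a tagged line differ by more than the libraries of 1 clone was tested with edgeR's quasi-likelihood test, in a fit of the 12 IP and total libraries. These libraries share a lysate in pairs, so the test is of these clones, not of the line. In *Rps27-FLAG* 6 of the 8 transcripts passed at an adjusted p under 0.05, where 46.2% of all tested transcripts did. The range over the 3 clones, on the log2 scale, was 0.82 for *Spry4*, 0.62 for *Dusp6*, 0.48 for *Spry2*, 0.25 for *Mapk3*, 0.23 for *Braf* and 0.2 for *Map2k1*, beside a median of 0.24 over all tested. In *Rps27l-FLAG* 4 of 8 passed, where 42.6% of all did: *Dusp6* with a range of 0.86, *Spry4* with 0.58, *Spry2* with 0.37 and *Mapk3* with 0.35. With DESeq2 the calls were 3 in each line, *Dusp6*, *Spry2* and *Spry4*.

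Part of the spread followed the replicate number. In total RPFs, with the line as a term, 4 of 8 transcripts differed between replicate numbers by edgeR's quasi-likelihood test with Benjamini-Hochberg adjustment, where 12.3% of all tested transcripts did. The log2 range over the numbers was 0.79 for *Spry4* (adjusted p = 0.000172), 0.74 for *Dusp6* (adjusted p = 0.000126), 0.41 for *Spry2* (adjusted p = 0.00812) and 0.36 for *Mapk3* (adjusted p = 0.0295), the last lowest where the others were highest. WT replicate 1 carried part of this, since without it 2 of 8 were called, *Dusp6* and *Spry4*. Some markers of other cell states moved with the number as well. Of the 5 primitive endoderm markers, summed levels were 23.5 to 51.4 normalized CPM in the total RPFs of replicate 1, 9.83 to 27 in replicate 2 and 9.05 to 23.2 in replicate 3. *Dab2*, the 1 of these 5 that passed the filter on low counts, was called (adjusted p = 0.0032, same test). The 4 mesoderm markers summed to 31 to 36 in replicate 1, 12.8 to 27.9 in replicate 2 and 13.7 to 15.8 in replicate 3, with *Eomes* called (adjusted p = 0.00537 from edgeR). Of the 10 mESC markers 3 were called, in both directions: *Klf4* with means of 215, 132 and 129 in replicates 1, 2 and 3, *Utf1* with 562, 472 and 474, and *Tfcp2l1* with 214, 228 and 266. The formative epiblast marker *Otx2* (23, 29.3 and 18.1) and the trophoblast marker *Krt18* (41.9, 39.3 and 24.7) were called too. Other tested markers of these lists were not called (adjusted p from 0.0755 to 0.755 by edgeR's test). They were *Dnmt3b*, *Lef1* and *Pou3f1* of formative epiblast, *Krt8* of trophoblast and *Kdr* of mesoderm. *Lef1* was highest in replicate 1 (61.5, 51.9 and 40.3), unlike *Otx2*. The part of the library pool, of the clones and of these marker levels in the step was not tested.

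The feedback genes rose and fell in concert over the 9 clones. In log2 normalized CPM of total RPFs, Pearson's r was 0.967 for *Dusp6* and *Spry4* (exact permutation test over 362880 pairings, two-sided, p = 7.72e-05, Benjamini-Hochberg adjusted over the 3 pairs 0.000113; Spearman's rho 0.933, p = 0.00075, adjusted 0.00075). It was 0.961 for *Dusp6* and *Spry2* (exact p = 1.65e-05, adjusted 4.96e-05; rho 0.967, p = 0.000165, adjusted 0.000248). For *Spry2* and *Spry4* it was 0.951 (exact p = 0.000113, adjusted 0.000113; rho 0.983, p = 4.96e-05, adjusted 0.000149). Clones share lines and replicate numbers, so they are not freely exchangeable. Without the 2 clones farthest from the median r stayed between 0.921 and 0.961. Centred on the replicate number, with pairings permuted within it, r was 0.92 for *Dusp6* and *Spry4*, 0.932 for *Dusp6* and *Spry2* and 0.924 for *Spry2* and *Spry4* (exact permutation tests over 216 pairings, adjusted p = 0.0139, 0.0139 and 0.0231). Spearman's rho there was 0.783, 0.933 and 0.833 in the same order (exact permutation tests, adjusted p = 0.0486, 0.0139 and 0.0509), so by rank *Spry2* and *Spry4* no longer passed. The line was not removed in these values. *Rps27l-FLAG* was above *Rps27-FLAG* in every replicate number for each of the 3 genes, so the centred r include this difference between lines. The smallest p that a permutation test over 216 pairings can give is 0.00463. A replicate number holds only 3 clones, too few for a value of its own. Over the 6 IP libraries r was 0.907, 0.928 and 0.954 in the same order of pairs.

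Many other transcripts had patterns as close. Ranked by r with *Dusp6* over the 9 libraries, *Spry4* was in place 11 and *Spry2* in place 19 of all tested transcripts, and ahead of them stood *Fxr2* (0.992), *Arhgef7* (0.987) and *Brd1* (0.978). For *Spry4* the closest were *Myh10* (0.99), *Arhgef7* (0.98) and *Tbx3* (0.98), with *Dusp6* in place 8. For *Spry2* they were *Col4a2* (0.987), *Efcab14* (0.983) and *Mios* (0.983), with *Dusp6* in place 11. These 8 were picked from 10085 transcripts for their likeness, and over the 6 IP libraries the r of the closest 3 ranged from 0.584 to 0.859 for *Dusp6*, from 0.612 to 0.98 for *Spry4* and from 0.666 to 0.906 for *Spry2*.

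The comparison of lines in total RPFs asks what tagging, or the choice of clones, did to the cascade. With the line as the only term, 0 of the 8 transcripts and 0% of all tested were called by edgeR's quasi-likelihood test with Benjamini-Hochberg adjustment, in any of the 3 pairs of lines, and likewise with DESeq2 and with voom. Before adjustment, 294 transcripts had a p under 0.05 for *Rps27-FLAG* against WT, 574 for *Rps27l-FLAG* against WT and 580 for *Rps27l-FLAG* against *Rps27-FLAG*, with *Spry2* as the 1 of the 8 among the last. The log2 differences between *Rps27l-FLAG* and *Rps27-FLAG* were 0.61 for *Dusp6* (95% interval -0.02 to 1.24), 0.37 for *Spry4* and 0.35 for *Spry2*.

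With the replicate number as a block, the 3 feedback genes among the 8 were called in *Rps27l-FLAG* against *Rps27-FLAG* (plot of differences within replicate numbers). *Dusp6* was higher by 0.69, 0.68 and 0.42 on the log2 scale in replicates 1, 2 and 3, and by 0.60 in the fit (95% interval 0.42 to 0.78, adjusted p = 0.00465 by edgeR's quasi-likelihood test with Benjamini-Hochberg adjustment), a fold of 1.52. *Spry4* was higher by 0.26, 0.64 and 0.29, and by 0.40 in the fit (0.20 to 0.59, adjusted p = 0.0481 by the same test). *Spry2* was higher by 0.25, 0.47 and 0.36, and by 0.36 in the fit (0.19 to 0.53, adjusted p = 0.0472 by the same test). These 3 of 8 compare with 1.36% of all tested transcripts. The calls rested on single clones in part: 0 of 8 were left without *Rps27-FLAG* replicate 1 or replicate 2, only *Dusp6* was left without replicate 2 or 3 of *Rps27l-FLAG* or of WT or without *Rps27-FLAG* replicate 3, and *Dusp6* and *Spry4* were left without WT replicate 1. Voom called *Dusp6* alone, and DESeq2 called *Dusp6* and *Spry4*.

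Against WT with the same block, *Dusp6* was higher in *Rps27l-FLAG* by 0.24, 0.54 and 0.40 in replicates 1, 2 and 3, and by 0.39 in the fit (0.21 to 0.56, adjusted p = 0.0373 by edgeR's quasi-likelihood test), 1 of 8 where 1.43% of all tested were called. *Spry4* differed by 0.04, 0.57 and 0.41 and *Spry2* by 0.16, 0.37 and 0.24, with adjusted p of 0.0969 and 0.144 from edgeR. *Dusp6* was no longer called without replicate 2 or 3 of *Rps27l-FLAG* or WT, or without *Rps27-FLAG* replicate 2, and *Spry4* joined it without replicate 1 of *Rps27l-FLAG* or WT. For *Rps27-FLAG* against WT, 0 of 8 were called, where 0.00992% of all tested were (1 transcript, 630 at an unadjusted p under 0.05). *Dusp6* had the lowest p of the 8 there, with log2 differences of -0.45, -0.14 and -0.01, and of -0.21 in the fit (adjusted p = 0.761 from edgeR). These comparisons share their WT and *Rps27l-FLAG* libraries.

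Primitive endoderm markers, taken as a sum, reached higher levels in *Rps27l-FLAG*, though the ranges of the lines overlapped. Their summed levels in total RPFs were 23.2 to 51.4 normalized CPM in *Rps27l-FLAG*, 9.05 to 23.5 in *Rps27-FLAG* and 9.83 to 28.1 in WT, and none of the 5 was at 0 in any library. Only *Dab2* of the 5 passed the filter on low counts, and it was the largest part of the sum. In replicate 1 its mean was 17 normalized CPM, beside 9.03 for *Pdgfra*, 3.48 for *Gata6*, 2.85 for *Gata4* and 1.98 for *Sox17*. *Dab2* was higher in *Rps27l-FLAG* than in *Rps27-FLAG* by 1.39 on the log2 scale with the block (adjusted p = 0.00465 by edgeR's quasi-likelihood test). No tested marker of another cell type was called there. The part of the primitive endoderm markers in the difference of the feedback genes was not tested. The kinases gave no call in any of these comparisons. With the block, *Mapk3* was lower in *Rps27l-FLAG* than in WT in 3 of 3 replicate numbers (log2 differences of -0.04, -0.35 and -0.26, and -0.23 in the fit, adjusted p = 0.226 from edgeR), and the 95% intervals of *Braf*, *Araf*, *Map2k1* and *Map2k2* in *Rps27l-FLAG* against *Rps27-FLAG* lay within -0.32 to 0.31.

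**Figure D4:**
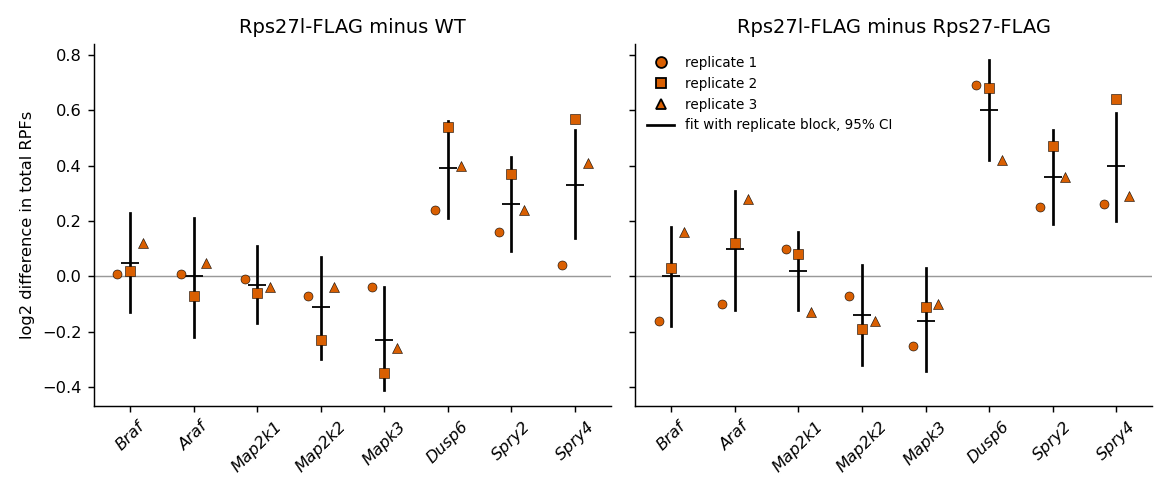
Log2 difference in total RPFs of *Rps27l-FLAG* from WT (left) and from *Rps27-FLAG* (right). Points are the differences within replicate numbers, lines the fit with the replicate block and its 95% interval. All 9 points of the feedback genes on the right lie above 0, from 0.25 to 0.69. They come from the same 3 pairs of clones for each gene, so they are not 9 separate measurements.

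The 86 other genes of the pathway that were looked at, of which 74 passed the filter on low counts, gave 3 calls (4.05% of the 74) in each of the blocked comparisons of *Rps27l-FLAG*, where 1.43% of all tested were called against WT and 1.36% against *Rps27-FLAG*. *Ccnd1*, the gene of cyclin D1, was lower than in WT and than in *Rps27-FLAG*, with log2 differences of -0.61 and -0.68 (adjusted p = 0.00358 and 0.00133 from edgeR). Its normalized CPM in replicates 1, 2 and 3 was 71.1, 97.2 and 115 in *Rps27l-FLAG*, 97.2, 173 and 190 in *Rps27-FLAG* and 103, 156 and 176 in WT. *Phlda1*, an immediate early gene, was higher by 0.69 and 0.79, and *Myc* was higher than in *Rps27-FLAG* by 0.46. *Fgfr2* was lower than in WT, with a log2 difference of -1.07, at 3.77 to 11.2 normalized CPM in *Rps27l-FLAG* and 6.16 to 21.5 in WT. With the block, 0 of the 11 other tested phosphatases and feedback inhibitors were called against WT or against *Rps27-FLAG*. Against *Rps27-FLAG* their log2 differences ran from -0.60 for *Ier3* to 0.62 for *Dusp4*. Without the block 0 of 74 were called in any pair of lines.

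By replicate number 17 of the 74 (23%) were called in total RPFs, where 12.3% of all tested transcripts were. By role these were 7 of 13 ligands and receptors, 4 of 11 phosphatases and feedback inhibitors, 4 of 19 substrates and target genes and 2 of 11 Ras proteins and GAPs, with 0 of 11 kinases and scaffolds and 0 of 9 adaptors and exchange factors. The 6 with the lowest p were *Ccnd1* (log2 range 0.81), *Myc* (0.80), *Fgfr2* (1.5), *Phlda1* (0.95), the phosphatase gene *Dusp9* (0.65) and *Spred2*, a Sprouty relative (0.48). *Dusp9* was highest in replicate 1 of each line, with 222, 114 and 115 normalized CPM in WT replicates 1, 2 and 3. *Ccnd1* had its lowest value in replicate 1 of each line. Among the clones of *Rps27-FLAG* 37 of 74 were called, led by *Ccnd1*, *Myc*, *Dusp9*, *Kit*, *Igf1r* and *Insr*, and among those of *Rps27l-FLAG* 39 of 74, with *Kit*, *Myc*, *Erbb3*, *Ccnd1* and *Phlda1* among those of lowest p, shares near the background given above. The gene with the highest level per kb in each role was *Fgf4* with 148 among ligands and receptors, *Gab1* with 205 among adaptors, *Rap1b* with 245 among Ras proteins and GAPs, *Ywhaz* with 942 among kinases and scaffolds, *Dusp9* with 115 among feedback inhibitors and *Mcl1* with 472 among substrates and targets.

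The last comparison asks whether ribosomes with a tagged paralog carry more or less of these transcripts than all ribosomes of the same clone. IP over total RPFs differed little for the 8. The largest mean over 3 clones was a log2 ratio of -0.23 ± 0.138 (SD, n = 3) for *Map2k2* in *Rps27-FLAG*. *Spry4* was above 0 in 6 of 6 clones, with log2 ratios of 0.19, 0.28 and 0.14 in *Rps27-FLAG* replicates 1, 2 and 3 and 0.09, 0.11 and 0.13 in *Rps27l-FLAG*. *Araf* and *Map2k2* were below 0 in 6 of 6 clones. *Araf* had -0.23, -0.27 and -0.14 in *Rps27-FLAG* and -0.07, -0.09 and -0.42 in *Rps27l-FLAG*. *Map2k2* had -0.21, -0.11 and -0.38 in *Rps27-FLAG* and -0.01, -0.19 and -0.29 in *Rps27l-FLAG*. *Dusp6* was above 0 in 5 of 6 clones, and *Rps27l-FLAG* replicate 3, with -0.09, was the exception. The share of all tested transcripts that lie on the same side of 0 in every clone is not given here.

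With the fraction as the only term, 0 of 8 were called by edgeR's quasi-likelihood test with Benjamini-Hochberg adjustment in *Rps27-FLAG*, where 5.67% of all tested were, and 0 of 8 in *Rps27l-FLAG*, where 3.1% were, and likewise 0 with DESeq2 and voom. Before adjustment *Map2k2* in *Rps27-FLAG* was the only one with a p under 0.05 from edgeR, in either line. Both libraries of a clone come from 1 lysate. With the clone as a block, 4 of 8 were called in *Rps27-FLAG*, where 41.2% of all tested were: *Spry4* with 0.20 (95% interval 0.13 to 0.27, adjusted p = 2.86e-07), *Dusp6* with 0.13 (adjusted p = 0.0206), *Map2k2* with -0.22 (adjusted p = 0.00552) and *Araf* with -0.22 (adjusted p = 0.0175). In *Rps27l-FLAG* 2 of 8 were called, where 31% of all were, *Spry4* with 0.10 (adjusted p = 0.0138) and *Dusp6* with 0.11 (adjusted p = 0.0485). These shares are near the background. *Dusp6* was not called without any 1 of the 3 *Rps27-FLAG* clones, nor without *Rps27l-FLAG* replicate 1 or 2. *Spry4* was not called without *Rps27l-FLAG* replicate 3, *Map2k2* without *Rps27-FLAG* replicate 3 and *Araf* without *Rps27-FLAG* replicate 1 or 2. With DESeq2 and the block only *Spry4* in *Rps27-FLAG* was called.

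The IP log2 ratio fell with CDS length over all tested transcripts, with a Spearman rho of -0.562 for *Rps27-FLAG* clones and -0.527 for *Rps27l-FLAG* clones, as a description across transcripts, which are not replicates. The 3 feedback genes have CDSs from 900 to 1143 nt, shorter than the median of 1438.5 nt. *Mapk3* with 1140 nt, *Map2k1* with 1179 nt and *Map2k2* with 1203 nt are shorter than the median as well, and had mean log2 ratios below 0 in both lines. With this trend removed and the block kept, 3 of 8 were called in *Rps27-FLAG*, where 30.5% of all tested were: *Spry4* with 0.10 (adjusted p = 0.0184), *Map2k1* with -0.11 (adjusted p = 0.0404) and *Map2k2* with -0.26 (adjusted p = 0.00119). In *Rps27l-FLAG* 0 of 8 were called, where 22.4% of all were, and *Spry4* had a log2 ratio of 0.03 there (2 of 8 had an unadjusted p under 0.05 by edgeR).

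The difference of the IP over total ratio between the tagged lines, the comparison the study was built for, was small for all 8 (plot of ratios by clone). In the fit with clone within line as a term 0 of 8 were called by edgeR's quasi-likelihood test, where 1.49% of all tested were, and 0 by DESeq2 or voom. *Spry2* came closest, with a difference between *Rps27l-FLAG* and *Rps27-FLAG* of -0.18 on the log2 scale (95% interval -0.35 to -0.01, adjusted p = 0.384 from edgeR). Its ratios were 0.15, 0.18 and 0.10 in *Rps27-FLAG* and 0.02, 0.05 and -0.22 in *Rps27l-FLAG*, so the clones did not overlap. *Spry4* differed by -0.10 (-0.20 to 0.00, adjusted p = 0.418) and *Dusp6* by -0.02 (-0.15 to 0.10, adjusted p = 0.945, both from edgeR). The *Spry4* clones, with the ratios given above, did not overlap either. The share of all tested transcripts whose clones separate in this way is not given here. For the kinases the differences lay between -0.10 for *Braf* and 0.08 for *Map2k2*.

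**Figure D5:**
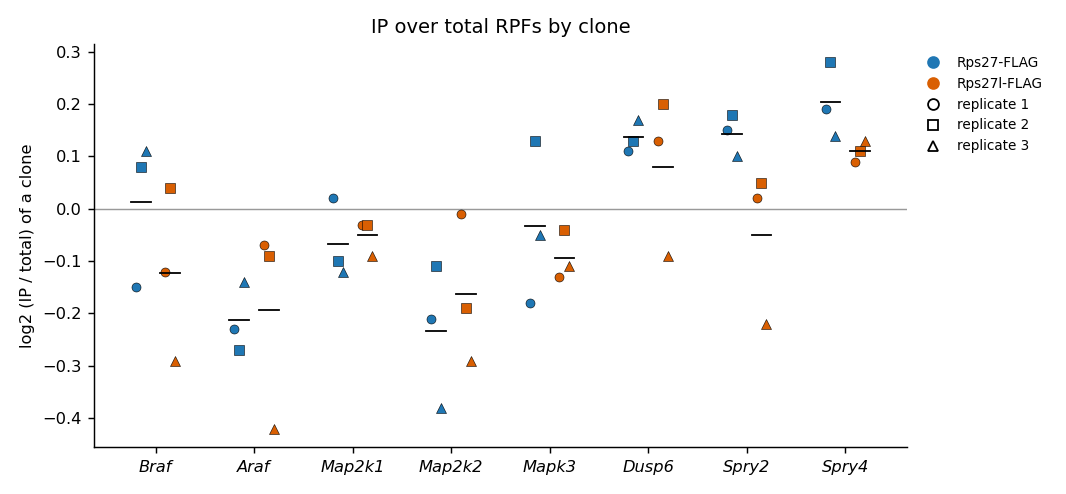
Log2 ratio of IP to total RPFs in each of the 6 tagged clones, with dashes at the mean of 3 clones. *Spry4* lies above 0 and *Araf* and *Map2k2* below 0 in all 6 clones, and *Spry2* and *Spry4* have their 3 *Rps27l-FLAG* clones (0.02, 0.05 and -0.22, and 0.09, 0.11 and 0.13) below the 3 of *Rps27-FLAG*. Shares of all tested transcripts with such patterns are not given.

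Of the 74 other pathway genes, 1 (1.35%) was called in the *Rps27-FLAG* IP without the block and 2 (2.7%) in the *Rps27l-FLAG* IP, where 5.67% and 3.1% of all tested were. In *Rps27-FLAG* *Nf1*, which encodes the Ras GAP neurofibromin, was lower in the IP, with a log2 ratio of -1.07 (adjusted p = 0.00901 from edgeR), with 39.6, 27.2 and 29.2 normalized CPM in the IP RPFs of replicates 1, 2 and 3 and 78.6, 61.1 and 62.7 in the total RPFs. In *Rps27l-FLAG* *Ywhaz*, the gene of a 14-3-3 protein that binds Raf, was higher in the IP by 0.24 (adjusted p = 0.0397 from edgeR). The CDS of *Nf1* has 8523 nt and that of *Ywhaz* 735 nt. With the block, 31 of 74 were called in *Rps27-FLAG* (14 higher and 17 lower) and 24 of 74 in *Rps27l-FLAG* (7 higher and 17 lower), again near the shares of all tested transcripts. The median log2 ratio of the 74 was -0.03 in both lines, beside -0.01 and -0.03 over all tested.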

How the data were processed

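The values are the authors' deposited counts of ribosome A sites per CDS (the first 15 and last 5 codons left out), not normalized. Per the methods and processing notes, reads were trimmed (cutadapt 2.4), deduplicated by molecular identifier (UMI-tools 1.0.1), cleared of rRNA, tRNA and snRNA, and aligned uniquely (Bowtie2 2.3.4.3) to GRCm38 transcripts of another GENCODE release than the M21 used here, which holds 21723 of the 21727 transcripts. Unique alignment lowers counts where paralogs share sequence. All 15 columns were used.

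After removal of 13 mitochondrially encoded transcripts, 10085 passed the filter (CPM over 2 in 14 libraries or more). TMM factors were fitted within the IP and within the total libraries. Tests ran on these counts in edgeR 4.0.16 under R 4.3.3 (quasi-likelihood F-test, Benjamini-Hochberg over all tested transcripts, threshold 0.05) in the study's designs. Normalized CPM are counts over TMM-scaled library sizes, and 0.5 was added before log2 ratios of clones. *Tmod3* was left out of the ratio comparison, as in the study. Scripts were tested on simulated data. Alternatives were voom (limma 3.58.1), DESeq2 1.42.0, other size factors and filters, the replicate block, a loess correction for CDS length (span 0.5) and each clone left out, and those run within the blocked fits were added after seeing the data.

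Per the methods, libraries were pooled by replicate number. Per the labels, both libraries of a tagged clone, IP and total, carry its number. Residuals of the latter correlated with r from 0.468 to 0.79 (6 pairs), and those of total libraries with the same number with a median r of 0.443 (9 pairs, from -0.164 to 0.713). The SDs from counting cover counting error only. The intervals of differences come from the edgeR fits and also hold spread between libraries.

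The 8 transcripts, the lists and the tests were chosen with earlier results of these data known. Named genes were the 8 and the pathway genes past the threshold (at most 6 per comparison, by p). Also named were the gene with the highest level per kb in each role and the 3 transcripts most like each feedback gene. Cell type markers, called and not called, were named as well. Some genes that the rule names are not reported here.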

Additional observations from a re-analysis of the deposited data

Results flagged for a closer look

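The IP over total ratio of *Nf1* differed between the tagged lines in the test of the difference itself. It was higher in *Rps27l-FLAG* than in *Rps27-FLAG* by 0.37 on the log2 scale (adjusted p = 0.024 from edgeR), the IP being below the total RPFs in both lines, with log2 ratios of -0.69 and -1.07 in the fits with the clone as a block. *Nf1* was not called with DESeq2, without the clone terms, with the CDS length trend removed, or without *Rps27-FLAG* replicate 2 or 3 or *Rps27l-FLAG* replicate 1 or 3.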

How the results depend on the processing

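Of the 992 alternative values of log2 fold changes of the 8 transcripts, 913 kept their direction and their side of the threshold, 40 lost and 17 gained a call, and 22 turned direction. All 16 values of clone spread stayed close to those reported. All 9 alternative values of Pearson's r kept their direction and an adjusted p under 0.05 by exact permutation. By Spearman's rho, *Spry2* and *Spry4* centred on the replicate number did not pass (adjusted p = 0.0509 by exact permutation). None of the 22 was called, and all but 1 came from leaving out 1 clone, *Braf* in the *Rps27-FLAG* IP with the replicate block being at 0.03 with DESeq2. Over the clones left out, the log2 difference of *Rps27-FLAG* from WT ran from -0.46 to 0.14 for *Dusp6*, -0.38 to 0.32 for *Spry4*, -0.26 to 0.05 for *Spry2*, -0.24 to 0.01 for *Mapk3*, -0.04 to 0.13 for *Braf* and -0.02 to 0.06 for *Map2k2*, where *Dusp6*, *Spry4* and *Spry2* turned without WT replicate 1. That of *Rps27l-FLAG* from *Rps27-FLAG* ran from -0.03 to 0.09 for *Map2k1*, and from -0.02 to 0.09 with the block. IP against total ran from -0.11 to 0.04 for *Mapk3* in *Rps27-FLAG* and from -0.08 to 0.04 for *Spry2* in *Rps27l-FLAG*. With the block these were -0.12 to 0.04 and -0.07 to 0.03, and *Braf* in *Rps27-FLAG* ran from -0.05 to 0.08. The ratio between lines ran from -0.02 to 0.14 for *Araf*, -0.01 to 0.14 for *Map2k2*, -0.14 to 0.03 for *Mapk3* and -0.06 to 0.03 for *Dusp6*.

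The replicate block, with samples paired by number, raised the members called from 0 to 1 for *Rps27l-FLAG* against WT, 3 for *Rps27l-FLAG* against *Rps27-FLAG*, 4 for IP against total in *Rps27-FLAG* and 2 in *Rps27l-FLAG*, and the other pathway genes called to 3, 3, 31 and 24. It changed no other call of the 8. With the block, leaving out 1 clone gave 0 to 2, 0 to 3, 2 to 2 and 1 to 1 members. DESeq2 gave 2 members against WT, 1 for the *Rps27-FLAG* IP and 0 for the *Rps27l-FLAG* IP, and voom gave 1 against *Rps27-FLAG* and 1 for the *Rps27l-FLAG* IP. With block and length correction 3 and 0 members and 24 and 18 pathway genes were called in the IPs, and with the correction alone 0 pathway genes in either line.

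DESeq2 called 2 and 5 pathway genes in the IPs, 0 for the ratio, and 3 members and 16 pathway genes among the clones of *Rps27-FLAG* and 21 pathway genes among those of *Rps27l-FLAG*. Without the clone terms, or with the length trend removed, 0 pathway genes were called for the ratio. Leaving out 1 clone gave 0 to 13 pathway genes for the *Rps27-FLAG* IP, 0 to 1 for the *Rps27l-FLAG* IP, 0 to 1 for the ratio, and by replicate number 2 to 4 members and 5 to 27 pathway genes. With no filter on low counts 27 pathway genes were called by replicate number. Over all tested transcripts, the 572 calls of the *Rps27-FLAG* IP became 4154 with the block (1831 by DESeq2), 148 with the length correction, 1809 without replicate 1 and 0 without replicate 2 or 3, and the 313 of the *Rps27l-FLAG* IP became 3128 with the block (1148 by DESeq2), 6 with the correction and 0 without replicate 1 or 2. The 150 of the ratio became 36 with DESeq2 and 0 without the clone terms, the 4658 and 4296 among clones became 1833 and 1493 with DESeq2, and the 1239 by replicate number ran from 270 without WT replicate 1 to 2160 without *Rps27l-FLAG* replicate 2, and were 2217 with no filter. With the block, the 144 of *Rps27l-FLAG* against WT ran from 23 without WT replicate 3 to 269 without *Rps27l-FLAG* replicate 1, and the 137 against *Rps27-FLAG* from 10 without *Rps27-FLAG* replicate 2 to 389 without *Rps27l-FLAG* replicate 1. The cause of these shifts was not tested.

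With 3 clones a line, the 95% interval of *Dusp6* without the block (-0.02 to 1.24, *Rps27l-FLAG* against *Rps27-FLAG*) was wider than the difference itself, and counting error was a small part of it.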
